A study of Mus musculus with 162 samples.

Results

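Transcripts of 10 genes of skeletal muscle fibres were followed through the fat libraries of a fasting study in mice. The result is a depot by depot record of these transcripts in tissue that is not muscle. The genes were Acta1, Ckm, Myh1, Myh2, Myh4, Tnnt3, Tnni2, Mylpf, Mb and Actn3, taken by symbol from a count table of 53686 rows. They were read library by library in interscapular brown adipose tissue (iBAT), posterior-subcutaneous white adipose tissue (psWAT) and perigonadal white adipose tissue (pgWAT), with the other organs beside them. The animals were adult wild-type C57BL/6J males, 18 in all, with 3 mice at each of 6 time points. Mice at 0 h had free access to food, and the others had been without food for 2, 8, 12, 18 or 22 h when the organs were taken. Each mouse gave all 9 organs, so that a replicate is a separate mouse and the fat depots of a time point come from the same 3 mice. Of the 54 fat libraries, 52 were kept by the quality filter of the study, 17 of iBAT, 17 of psWAT and 18 of pgWAT.

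Muscle fibres contract when myosin heads pull on actin filaments, and calcium bound by the troponin complex switches this on. Fast fibres use the myosin heavy chains Myh1, Myh2 and Myh4 (types IIx, IIa and IIb), while slow fibres use Myh7. These proteins are made in mature fibres, and brown and white adipocytes are not known to build sarcomeres. In the mouse, iBAT lies against the muscles between the shoulder blades and psWAT against those of the flank and hip, while pgWAT lies inside the abdomen beside the epididymis. Acta1 is the actin of the skeletal muscle thin filament, Tnnt3 and Tnni2 are the fast troponins T and I, and Mylpf is the fast regulatory light chain of myosin. Actn3 anchors actin at the Z-disc of fast fibres, Ckm regenerates ATP from phosphocreatine, and Mb stores oxygen in oxidative fibres.

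The promoters of Acta1 and Myh4 are shown because their genes mark the contrast among the depots: Acta1 was counted in every fat library, and Myh4 passed 3 counts in few pgWAT libraries. RefSeq promoter windows (build GRCm38.p6) were matched to 7 of the 10 genes. Each line gives the 250 bases before the RefSeq start on the gene's strand, 5′ to 3′, Acta1 at chr8:123894776-123895025 (minus strand) and Myh4 at chr11:67237562-67237811 (plus strand). Capitals mark matches to the E-box motif CAGCTG, the TATA box motif TATAAA, a MEF2 site or a CArG box, searched on both strands.
Acta1: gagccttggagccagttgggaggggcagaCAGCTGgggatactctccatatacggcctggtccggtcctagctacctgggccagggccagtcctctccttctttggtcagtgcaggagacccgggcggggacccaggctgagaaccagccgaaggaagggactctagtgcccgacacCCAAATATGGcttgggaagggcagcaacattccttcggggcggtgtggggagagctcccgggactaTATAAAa
Myh4: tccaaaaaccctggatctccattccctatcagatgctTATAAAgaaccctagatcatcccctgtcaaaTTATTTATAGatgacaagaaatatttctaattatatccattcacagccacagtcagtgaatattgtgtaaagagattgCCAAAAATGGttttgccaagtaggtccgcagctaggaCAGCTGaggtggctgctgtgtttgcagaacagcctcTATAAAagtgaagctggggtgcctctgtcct

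The E-box lay 221 to 216 bases before the Acta1 start and 67 to 62 before that of Myh4, and the CArG box ended 64 and 95 bases before these starts. The MEF2 match of Myh4, at 182 to 173 bases, holds a TATA box motif on the other strand. Among the 7 genes with a window, 5 held the E-box, 3 the TATA box, 2 the MEF2 site and 2 the CArG box. Of 32851 mouse promoter windows of the same length, 13% held the E-box, 12.37% the TATA box, 2.919% the MEF2 site and 1.467% the CArG box. The windows of Ckm and Mylpf and the Mb windows with an E-box, placed by RefSeq starts, lie inside the Gencode spans of these genes given next, and that of Myh1 runs into its span. These matches describe letters in a window and were not tested for binding.

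By the Gencode M21 annotation of GRCm38, the fast myosin genes stand next to each other on chromosome 11, Myh2 at 67171027 to 67197517, Myh1 at 67200052 to 67224575 and Myh4 at 67238029 to 67260446, all on the plus strand. Their coding sequences are much alike, and as only unique reads were counted, reads that fit several of them are in no count. In psWAT 8 h replicate 2, 23237 counts of Myh4 stood beside 24 of Myh1 and 0 of Myh2, and in STM 0 h replicate 1, 1203 counts of Myh1 beside 4 of Myh4. Antisense genes overlap Myh1 (Myhas) and the end of Myh2 in this annotation, and as the strand setting of the counting is not given, their reads cannot be told apart from those of the myosins. Tnni2 (142441808 to 142444410) and Tnnt3 (142498836 to 142516009) are neighbours on chromosome 7, which also holds Ckm (19404776 to 19422841) and Mylpf (127208890 to 127214298). Acta1 lies on chromosome 8 (123891769 to 123894751), Mb on chromosome 15 (77015487 to 77050670) and Actn3 on chromosome 19 (4861216 to 4877909).

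Library totals ran from 3156101 to 27801717 counts in iBAT, from 4099281 to 9802381 in psWAT and from 5784709 to 19829510 in pgWAT. A count of 3 was taken as the floor of detection, which is 0.108 to 0.951 CPM (counts scaled to a common library total) in the kept fat libraries and covers counting error only. Ucp1, the uncoupling protein of brown fat, was at 2330 to 7549 CPM in iBAT. Fabp4, a fatty acid carrier of all adipocytes, was at 6242 to 18310 CPM in iBAT, 317 to 18084 CPM in psWAT and 2250 to 25282 CPM in pgWAT. Genes typical of other tissues were counted too, and their source was not tested. A summed list of 5 lymphoid genes reached a median of 1463 CPM in psWAT against 1.85 in iBAT and 8.96 in pgWAT. A list of 7 cerebellar genes stood at 4570 CPM in psWAT 12 h replicate 3, and a list of 8 epididymis and testis genes rose as high as 24932 CPM in pgWAT 22 h replicate 2. In bulk tissue, fewer cells of a type and less RNA per cell cannot be told apart.

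Every depot held libraries with muscle transcripts, but the amount differed between depots and between mice by orders of magnitude. The summed level of the 10 genes had a lowest, median and highest value of 43.6, 1101.5 and 12670 CPM in iBAT, of 24.5, 630 and 36449 CPM in psWAT, and of 14.7, 28.8 and 574 CPM in pgWAT. The highest library was therefore 291-fold above the lowest in iBAT, 1488-fold in psWAT and 39.04-fold in pgWAT. A level of 100 CPM was passed by 14 of 17 iBAT, 15 of 17 psWAT and 3 of 18 pgWAT libraries, and a level of 1000 CPM by 9, 8 and 0. At the top, 3.64% of all counts of psWAT 2 h replicate 2 came from these genes.

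**Figure D1:**
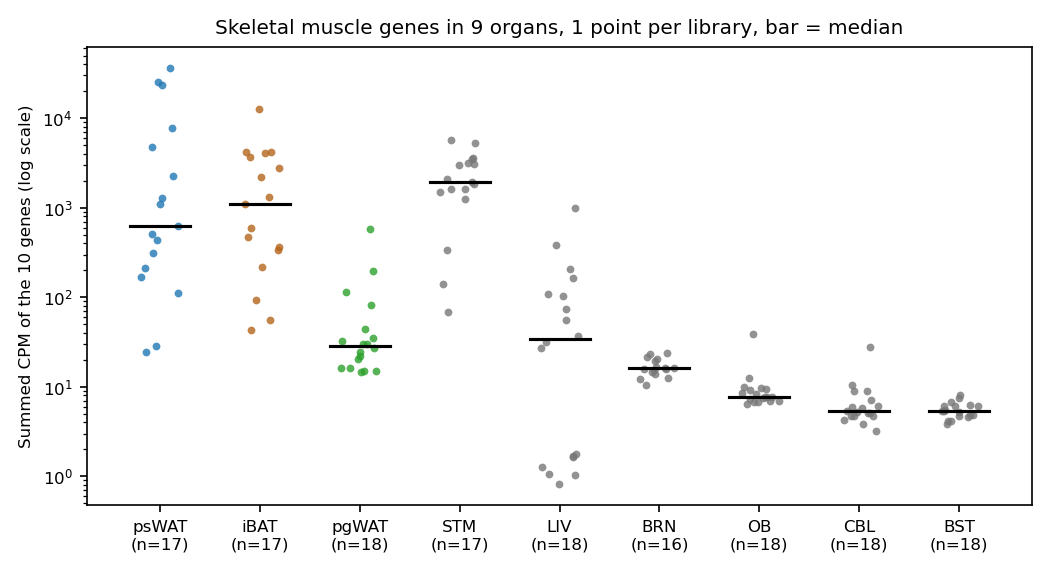
Summed CPM of the 10 muscle genes (log axis) in each kept library, by organ; each point is a library and each bar the median. iBAT, psWAT and STM libraries spread over orders of magnitude with medians of 1101.5, 630 and 1923 CPM, while the pgWAT median is 28.8 CPM and the brain regions stay at 38.7 CPM or lower.

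In iBAT the thin filament gene Acta1 had a median of 281 CPM and a range of 8.94 to 3512 CPM. Ckm ranged from 5.55 to 2074.5 CPM (median 169.03), Myh4 from 4.75 to 1728 (median 153.07) and Tnnt3 from 4.52 to 1693 (median 125.8). Tnni2, Mylpf, Mb and Actn3 had medians of 79.9, 67.8, 63.9 and 56.4 CPM, and the less used fast myosins Myh1 and Myh2 of 17.1 and 7.12 CPM. For all 10 genes the highest library was iBAT 12 h replicate 3, and the lowest was another mouse of the same time point, replicate 1 or 2. With the libraries ordered by replicate, Ckm was at 11.0, 63.3 and 447 CPM at 0 h, and at 35.9, 87.4 and 619 CPM at 2 h. At 8 h it was at 169.03, 609 and 604 CPM, and at 12 h at 8.14, 5.55 and 2074.5 CPM. At 18 h it stood at 59.4, 43.2 and 230 CPM, and in the 2 kept libraries of 22 h (replicates 2 and 3) at 559 and 449 CPM. Ckm differed 40.8-fold among the mice of 0 h, 374-fold among those of 12 h and 3.60-fold among those of 8 h, so that the time points overlapped.

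In psWAT the top and the bottom of the range lay further apart. Acta1 ranged from 3.03 to 8313 CPM (median 156.6), Ckm from 1.58 to 6991 (median 95.9) and Myh4 from 1.98 to 7485 (median 116.3). Tnnt3, Tnni2, Mylpf and Actn3 had medians of 112.1, 70.3, 46.3 and 30.4 CPM and highest values of 5241, 2398, 2332 and 2814 CPM. Mb ranged from 0.143 to 231.5 CPM (median 12.0), Myh1 from 0 to 583 (median 12.1) and Myh2 from 0 to 60.3 (median 0.709). Most of the signal came from 3 libraries: 2 h replicate 2, 8 h replicate 2 and 18 h replicate 3 had summed levels of 36449, 25315 and 23175 CPM, while the next, 22 h replicate 3, had 7707 CPM. By replicate, Ckm was at 205, 95.9 and 1.58 CPM at 0 h, at 32.8, 6991 and 240 CPM at 2 h, and at 883, 5727 and 29.4 CPM at 8 h. It was at 21.3, 79.9 and 76.7 CPM at 12 h, at 413, 3.37 and 4738 CPM at 18 h, and in replicates 1 and 3 of 22 h at 59.4 and 1277 CPM. Ckm differed 3.75-fold among the mice of 12 h and 129-fold to 1407-fold among those of 0, 2, 8 and 18 h, so that here too the time points overlapped.

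In pgWAT most of these genes lay near the floor. Myh4 was above 3 counts in 3 of 18 libraries, Myh2 in 5, Ckm in 8, Myh1 and Tnni2 in 11 each, Tnnt3 in 12 and Mylpf in 13. Acta1, Mb and Actn3 were above it in all 18. Ckm was listed at 0 in 12 h replicates 1 and 2, where 3 counts would be 0.464 and 0.377 CPM. Its median was 0.298 CPM and its highest values were 159.5 CPM in 22 h replicate 2 and 47.7 CPM in 2 h replicate 2. Acta1 was at 4.12, 7.82 and 7.67 CPM at 0 h, at 6.86, 138.2 and 15.2 at 2 h, at 28.6, 22.6 and 36.002 at 8 h, at 7.12, 9.30 and 20.5 at 12 h, at 23.5, 12.1 and 19.8 at 18 h, and at 12.7, 399.8 and 102.5 CPM at 22 h. All 8 h values, all 18 h values and all 22 h values of Acta1 lay above the highest of 0 h. Actn3 ranged from 0.756 to 8.54 CPM with a median of 4.62 CPM, and its highest library was 12 h replicate 2, where Ckm was listed at 0.

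In pgWAT, 3 libraries held Acta1 at over 100 CPM and Ckm with little or no fast myosin. In 22 h replicate 2, with Acta1 at 399.8 and Ckm at 159.5 CPM, Myh1, Myh2 and Myh4 were all listed at 0 and Tnnt3 was at 0.968 CPM. The same library had the highest sums of the 6 smooth muscle genes (17600 CPM, against a pgWAT median of 249) and of the epididymis and testis list (24932 CPM, against a median of 12.3), and the lowest of the 9 adipocyte genes (8393 CPM). In 2 h replicate 2, with Acta1 at 138.2 CPM, Myh1 was at 0.645 CPM, the smooth muscle list at 5068 CPM and the epididymis and testis list at 2903 CPM. In 22 h replicate 3, with Acta1 at 102.5 and Ckm at 5.60 CPM, Myh1 and Myh2 had 2 and 1 counts and Myh4 0, and the smooth muscle and epididymis lists were at 660 and 627 CPM. The library with the most fast fibre transcripts was another, 8 h replicate 3, with Myh4 at 8.11, Tnnt3 at 11.3 and Ckm at 9.18 CPM, and there the smooth muscle and epididymis lists were at 215 and 7.51 CPM. A further library with a high epididymis and testis sum, 18 h replicate 3 at 17922 CPM, had the smooth muscle list at 791 CPM, Acta1 at 19.8 CPM and Ckm at 0.151 CPM. Whether other tissues had a part in the Acta1 and Ckm levels of pgWAT was not tested.

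**Figure D2:**
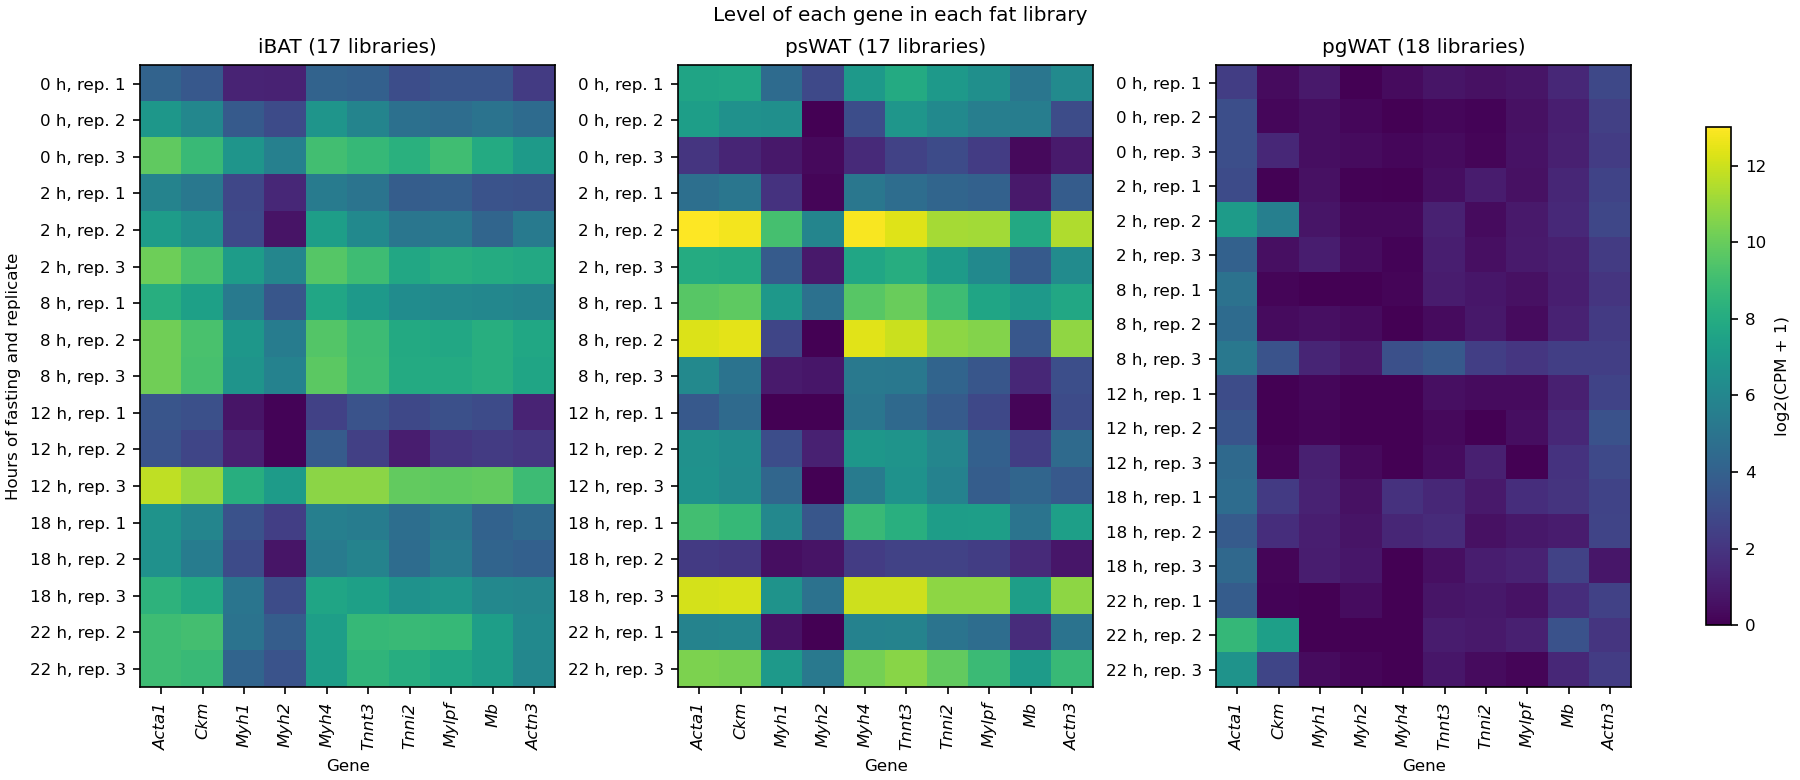
Heat map of CPM (colour, log scale) of the 10 genes in all kept iBAT, psWAT and pgWAT libraries, ordered by fasting time. Each row is a library and each column a gene. The rows of iBAT turn dark or light for the genes together, those of psWAT for most genes but not always for Myh1, Myh2, Myh4 and Mb. In pgWAT Acta1 and Actn3 have the highest medians (17.5 and 4.62 CPM), and Myh4 passes 3 counts in 3 of 18 libraries. Other genes exceed Actn3 in some pgWAT libraries, as Ckm does in 2 h replicate 2 and 22 h replicate 2.

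**Figure D3:**
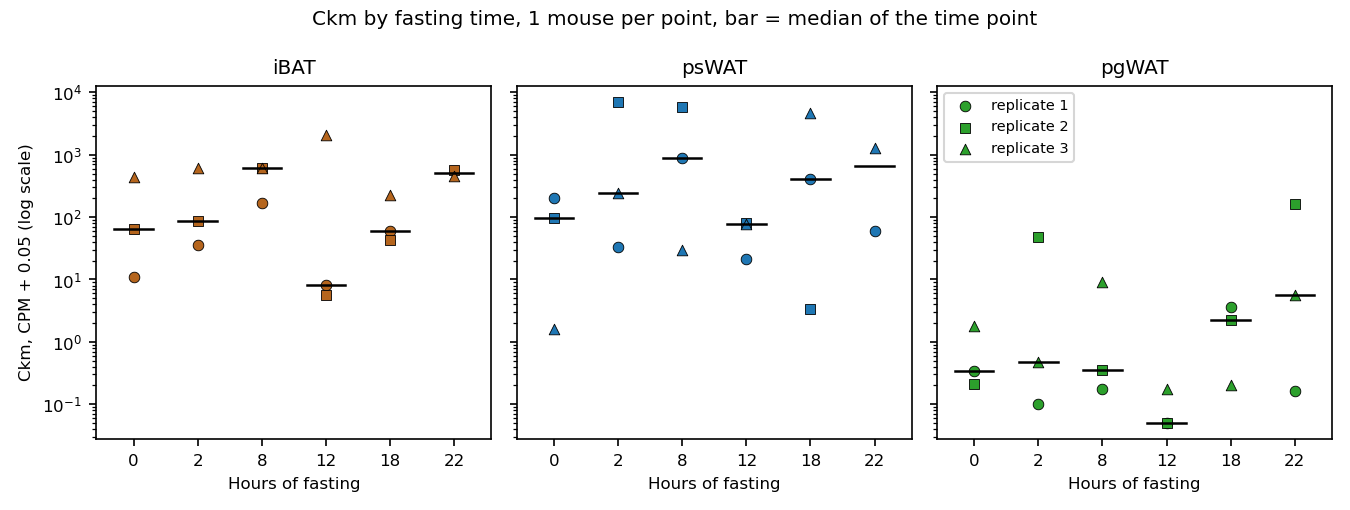
Ckm as CPM + 0.05 (log axis) against hours without food, one panel per depot; each point is a kept library, the bar is the median of a time point. At 0 h the points span 11.0 to 447 CPM in iBAT and 1.58 to 205 CPM in psWAT, and no time point of these depots stands clear of the rest.

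The design asks whether the length of the fast changed the level of these genes within a depot. An edgeR quasi-likelihood F test across the 6 time points, adjusted over all tested genes by Benjamini-Hochberg, called 0 of 10 in iBAT (adjusted p 0.734 to 0.885), where it called 29% of all tested genes. It called 0 of 10 in psWAT (adjusted p 0.411 to 0.822) and 0 of 8 tested in pgWAT (adjusted p 0.317 to 0.816), where the share of all genes called was 0% in each. At an unadjusted p under 0.05 the edgeR counts were 0, 0 and 4, the 4 of pgWAT being Acta1, Tnnt3, Myh4 and Ckm, beside 41.6%, 19.1% and 10.3% of all tested genes. DESeq2 called 0, 0 and 2, beside 5883, 2053 and 556 of all genes. Myh2 and Tnni2 did not pass the filter on low counts in pgWAT, so that the 8 tested are not all of the genes.

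Each time point was also compared with 0 h, where a call needed an adjusted p under 0.05 together with an at least 2-fold change (absolute log2FC over 1). None of the 10 genes passed in iBAT in any of the 5 comparisons (lowest adjusted p 0.534 by edgeR), in which 0.227%, 0.344%, 0.227%, 0.268% and 29.7% of all genes were called at 2, 8, 12, 18 and 22 h. None passed in psWAT (lowest edgeR adjusted p 0.536) or among the 8 tested in pgWAT (lowest edgeR adjusted p 0.0905), with 0% of all genes called in psWAT at each time, 0% in pgWAT up to 18 h and 0.00609% in pgWAT at 22 h. At an unadjusted p under 0.05 edgeR gave 0, 0 and 7 gene and time combinations in iBAT, psWAT and pgWAT. The 7 were 1 at 2 h, 3 at 8 h and 3 at 22 h, beside 4.66%, 9.55% and 21.7% of all genes at these times. DESeq2 called 0, 0 and 2, the latter Acta1 and Ckm in pgWAT at 22 h, with log2FC of 4.66 and 6.10 and adjusted p of 0.000129 and 0.0489, beside 785 of all genes. Without pgWAT 2 h replicate 2 and 22 h replicate 2, DESeq2 called Acta1 alone, with 22 h replicate 3 still in the fit. The mice at 22 h included replicate 2, the library with the highest smooth muscle and epididymis levels.

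The precision of these tests was low. The SE of log2FC was worked back from the edgeR test, as the absolute log2FC divided by the square root of F. It was 1.76 to 2.38 for the muscle genes in iBAT and 1.96 to 2.78 in psWAT, against a median over all genes of 0.293 and 0.451. In pgWAT it was 0.485 to 3.72 against 0.346. Differences of several fold between time points were thus not detectable for most of these genes with 2 or 3 mice per group. The 22 h libraries of iBAT were sequenced on lanes that held no other iBAT library, and time and lane cannot be told apart there. In pgWAT all libraries of 18 and 22 h were on lane 6 and all of 0 h on lane 5, and only 12 h had libraries on both. With lane as a covariate edgeR called 0 of the 8 genes there, each at an adjusted p of 0.996. Without the 22 h libraries of iBAT the joint test called 65 of all genes in place of 4210 and still 0 of the 10.

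Between depots, with time point in the model, all 10 genes were called higher in psWAT than in pgWAT. Of these, 8 passed the filter on low counts within each of the depots, while Myh2 and Tnni2 passed it only where they were high and so had to differ. Myh4 had the largest difference, a log2FC of 10.52 ± 1.203 (SE; edgeR adjusted p 1.56e-10), with psWAT libraries at 1.98 to 7485 CPM and pgWAT at 0 to 8.11 CPM. The value rests on 3 counts or fewer in 15 of the 18 pgWAT libraries. Mb had the smallest, 4.31 ± 0.79 (edgeR adjusted p 4.66e-06), with a psWAT range of 0.143 to 231.5 CPM that overlapped the 0.955 to 8.84 CPM of pgWAT. The fast troponins Tnnt3 and Tnni2 had log2FC of 9.40 and 9.00, Mylpf 8.44, Ckm 7.58, Myh1 6.49, Actn3 5.98, Acta1 4.98 and Myh2 4.98. Over the 8 genes that passed in each depot the median was 7.03, against 0.04 over all 15127 genes that did. Of all tested genes, 42.1% were called in either direction, 23.9% higher and 18.3% lower in psWAT, and of the 15127 genes 34.8% were called and 19.1% higher. Both depots went through the same lipid tissue RNA kit.

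All 10 were also called higher in iBAT than in pgWAT, again with Myh2 and Tnni2 passing the filter in iBAT alone, beside 38.9% of all genes called, 14.3% higher and 24.6% lower in iBAT. Of the 13961 genes that passed in each of these depots 29.2% were called and 15.2% higher. The log2FC was 10.24 for Myh4, 8.87 for Tnnt3, 8.76 for Mylpf and 8.66 for Tnni2. It was 7.34 for Ckm, 7.14 for Myh2, 7.06 for Myh1, 6.64 for Mb, 5.31 for Acta1 and 4.83 for Actn3, with SE of 0.859 to 1.26 and edgeR adjusted p of 7.29e-06 or lower. The 2 comparisons share the pgWAT libraries. Without pgWAT 2 h replicate 2 and 22 h replicate 2, the libraries highest in Ckm, the log2FC of Ckm rose to 9.16 between psWAT and pgWAT and to 8.74 between iBAT and pgWAT, and all 10 genes still passed in both comparisons. With the mouse as a block all 10 passed in both comparisons, but several differences were smaller. Between psWAT and pgWAT, Actn3, Acta1 and Mb then had log2FC of 3.89, 3.83 and 3.43, and between iBAT and pgWAT Acta1, Actn3 and Mb of 4.17, 3.69 and 5.85. RNA of iBAT was extracted with another kit than that of the white depots, and kit and depot cannot be told apart.

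psWAT and iBAT differed in 2 of the 10 genes, a share below the 50.2% of all genes called, and both were lower in psWAT (19.6% of all genes were lower and 30.6% higher). All 10 passed the filter in each depot, and of the 13994 genes that did, 42.7% were called, 22.6% lower and 20.1% higher, so that 2 of 10 lower is near the background. Mb had a log2FC of -2.34 ± 0.76 (edgeR adjusted p 0.00513) and Myh2 of -2.16 ± 0.91 (edgeR adjusted p 0.0295). With each mouse left out in turn, log2FC ran from -3.01 to -1.69 for Mb and from -3.11 to -1.21 for Myh2. Myh2 lost its call with the mouse as a block (edgeR adjusted p 0.0648), without psWAT 12 h replicate 3 (0.0502) and without any of 5 of the mice (0.0543 to 0.153), whereas Mb passed in each of these fits. The remaining 8 had log2FC of -0.574 (Myh1), -0.324 (Acta1), -0.320 (Mylpf), 0.236 (Ckm), 0.272 (Myh4), 0.344 (Tnni2), 0.531 (Tnnt3) and 1.15 (Actn3) with SE of 0.805 to 1.16, which leaves room for differences of several fold either way. Without normalisation factors the median log2FC of all genes between psWAT and iBAT moved up by 0.849, the higher share of the called genes went from 60.9% to 86.0%, and Acta1, Myh1 and Mylpf changed sign relative to the values above. The corresponding shares were 36.7% and 15.1% for iBAT against pgWAT and 56.6% and 64.8% for psWAT against pgWAT, where all 10 genes stayed higher in the depot named first.

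**Figure D4:**
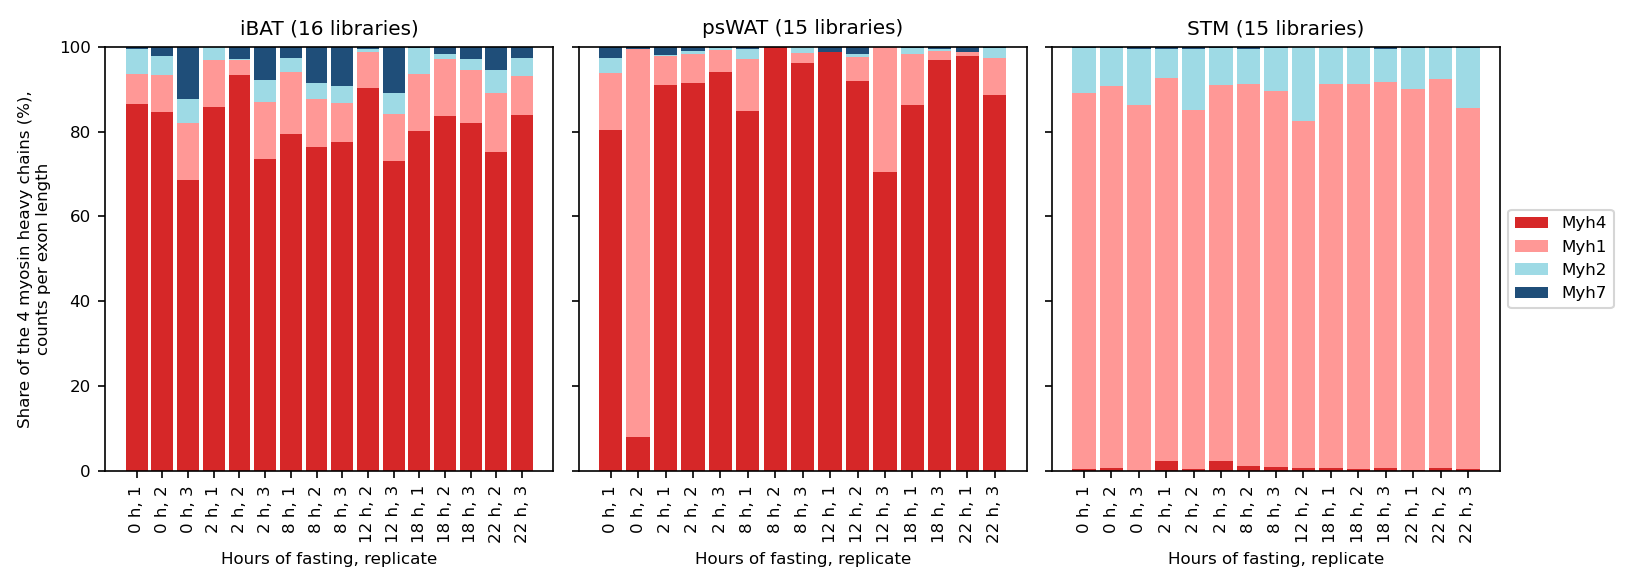
Share of each myosin heavy chain (percent of the length-scaled counts of Myh1, Myh2, Myh4 and Myh7) in libraries with at least 100 counts of these genes, stacked bars, 1 per library, in iBAT (16), psWAT (15) and STM (15). Myh4 fills most of nearly every iBAT and psWAT bar, psWAT 0 h replicate 2 being the exception, and Myh1 fills those of STM.

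The kind of fast myosin was compared within libraries, after division by exon length, in those with at least 100 counts over Myh1, Myh2, Myh4 and Myh7. In the 16 iBAT libraries that qualified, Myh4 (IIb) made up 68.5 to 93.3% of the 4 (median 81.1%), Myh1 (IIx) 3.61 to 14.7%, Myh2 (IIa) 0.303 to 5.93% and the slow Myh7 0 to 12.4%. The highest Myh7 share, 12.4%, was that of 0 h replicate 3, followed by 10.8% in 12 h replicate 3. Myh4 thus led in libraries rich and poor in muscle transcripts, but the share of Myh7 was not the same in them. Myh7 was at 366 CPM in 12 h replicate 3, and at 0 and 0.0941 CPM in 2 h replicate 1 and 12 h replicate 2.

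In the 15 psWAT libraries the median share of Myh4 was 91.6%, that of Myh1 6.75%, that of Myh2 0.574% and that of Myh7 0.418%. The extremes came from libraries with unlike summed levels of the 10 genes, 630 CPM in 0 h replicate 2 (the depot median) and 25315 CPM in 8 h replicate 2. In 0 h replicate 2, Myh1 was at 91.6% and Myh4 at 7.94%, and in raw counts Myh4 was 53 of 703, or 7.54% (95% Clopper-Pearson interval 5.70 to 9.75%, counting error only, as for the next). In 8 h replicate 2, one of the richest, Myh4 was at 99.9%, with 23237 of 23262 counts (interval 99.84 to 99.93%), while Myh1 had 24 counts and Myh2 0. In 12 h replicate 3, the library with cerebellar genes, Myh1 was at 29.4% and Myh4 at 70.6%. In STM the order was the opposite, with Myh1 at 81.98 to 92.01% and Myh4 at 0 to 2.30% in 15 libraries.

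**Figure D5:**
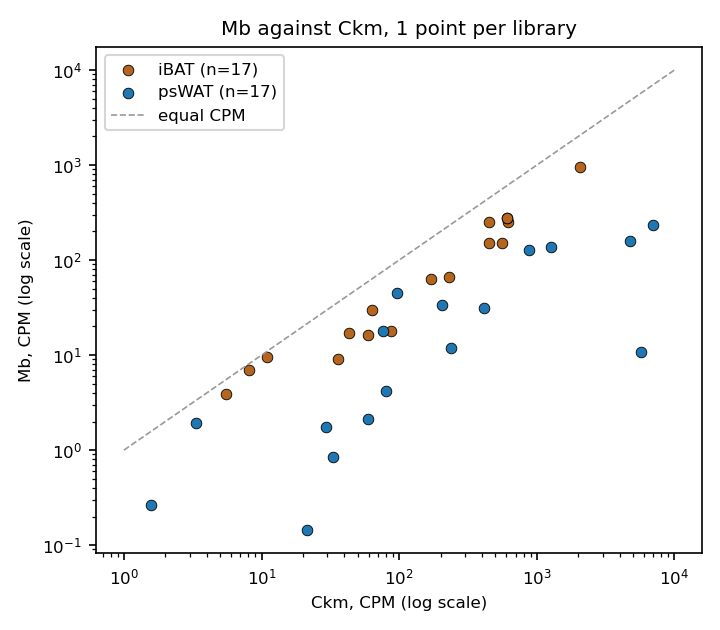
Mb against Ckm, both in CPM on log axes, each point a kept library of iBAT or psWAT. iBAT points lie along a line with Mb at 0.205 to 0.865 of Ckm, while most psWAT points scatter below it, down to 0.00187, and 3 lie within it.

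The oxygen store Mb followed Ckm more loosely in psWAT than in iBAT. In libraries with at least 10 counts of each gene, Mb was 0.205 to 0.865 of Ckm in the 17 iBAT libraries (median 0.406) and 0.00187 to 0.576 in 14 psWAT libraries (median 0.0683). The other 3 psWAT libraries had fewer than 10 counts of Mb. The lowest was 8 h replicate 2, with Mb at 10.7 and Ckm at 5727 CPM, the library whose myosin was nearly all Myh4. The highest was 18 h replicate 2, which had little of either gene (1.94 and 3.37 CPM), followed by 0 h replicate 2, with Mb at 45.1 and Ckm at 95.9 CPM, the library whose myosin was mostly Myh1. Tnnt3 kept closer to Ckm, at 0.723 to 1.36 of it in iBAT and 0.692 to 3.08 in psWAT.

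Genes of slow fibres set the depots apart in the same direction as Mb. All 8 genes of the slow fibre list were lower in psWAT than in iBAT, with a median log2FC of -2.95 against -0.02 over the genes that passed the filter in each depot, 22.6% of which were lower, and all 8 kept this sign with other normalisations. With the mouse as a block 5 of 8 passed, as they did without normalisation factors. Myh7 itself had a lowest, median and highest value of 0, 6.48 and 366 CPM in iBAT, of 0, 0.991 and 121.7 CPM in psWAT, and of 0, 0 and 0.715 CPM in pgWAT. Myl2, a slow myosin light chain, and Tnnt1, the slow troponin T, had medians of 6.29 and 6.85 CPM in iBAT and of 0.283 and 3.31 CPM in psWAT, and their log2FC was -3.27 and -2.65 (edgeR adjusted p 0.005 and 0.00275). Within pgWAT 3 of the 8 passed the filter, and of these Tnnt1 and the troponin C gene Tnnc1 were higher in psWAT and in iBAT, whereas Casq2, a calcium store protein that reached 45.5 CPM in pgWAT, was not called.

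A further list of 18 skeletal muscle genes, 17 of which were tested, moved like the 10. Within pgWAT 8 of them passed the filter, and these 8 were higher in psWAT and in iBAT (median log2FC 5.24 and 5.40, against 0.04 and 0.09 over the genes that passed in each depot, 19.1% and 15.2% of which were higher), while the other 9 passed only where they were high. Between the depots with more muscle signal all 17 passed in each, and 0 of 17 differed between psWAT and iBAT, beside 42.7% of all genes that did so, 1 of 17 being higher in psWAT with the mouse as a block and 3 of 17 without normalisation factors. The 3 most abundant of the list in both depots were Atp2a1, the calcium pump of fast fibres, Pvalb, their calcium buffer, and Tnnc2, the fast troponin C. Atp2a1 was at 9.11 to 2255 CPM in iBAT and at 3.29 to 7069 CPM in psWAT, Pvalb at 3.48 to 1342 and at 1.98 to 4212 CPM, and Tnnc2 at 3.20 to 1398 and at 1.45 to 3189 CPM. In pgWAT the 3 most abundant were Myl1 (2.18 to 41.8 CPM), Tnnc2 (0.318 to 206.6 CPM) and Eno3 (9.19 to 42.9 CPM), Tnnc2 being highest in 22 h replicate 2.

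Myogenic regulators were scarce in all depots. Of 7 genes, 0 passed the filter in pgWAT, so that no test against that depot is given, and 0 of the 3 that passed in both psWAT and iBAT differed between them, too few to set beside the 42.7% of all genes. Myf6, a factor of mature fibres, reached 5.30 CPM in iBAT and 30.4 CPM in psWAT and never passed 3 counts in pgWAT. Chrna1, the muscle acetylcholine receptor subunit, reached 5.45 and 4.196 CPM. Of 4 genes linked to muscle wasting, 1 passed the joint test of time in iBAT, where 29% of all genes did, and 0 in psWAT and pgWAT, where 0% did. Pdk4 (333 to 2224 CPM in iBAT), Fbxo32 (7.46 to 48.6 CPM) and Trim63 (0 to 35.2 CPM), were the 3 with the highest mean in iBAT. Pdk4, a brake on glucose oxidation that many tissues use, was the gene that passed (edgeR adjusted p 0.0142).

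Among cardiac genes, Myh6, Nppa, Nppb and Myl7 did not pass the filter on low counts, and the summed list of 8 stayed at 2.53 to 27.9 CPM in iBAT, 16.3 to 68.5 CPM in psWAT and 10.0 to 37.7 CPM in pgWAT. Of the 3 that passed in both psWAT and pgWAT, 1 was higher and 1 lower in psWAT (19.1% and 15.7% of all genes were), and the 2 that passed in both iBAT and pgWAT were lower in iBAT (14.0% of all genes were). Tnni3, the cardiac troponin I, was the most abundant in psWAT (5.10 to 56.3 CPM). All 6 smooth muscle genes were lower in psWAT than in pgWAT and 5 of 6 lower in iBAT than in pgWAT, with 0 of 6 differing between psWAT and iBAT (42.7% of all genes did), but 1 higher in psWAT without normalisation factors. Of all genes that passed the filter in each depot compared, 15.7% were lower in psWAT and 14.0% in iBAT than in pgWAT. Without pgWAT 2 h replicate 2 and 22 h replicate 2, 4 of 6 were lower in psWAT and 2 of 6 in iBAT. Acta2, Tagln and Myh11 were the most abundant, with iBAT ranges of 8.87 to 45.8, 22.9 to 52.6 and 8.24 to 46.2 CPM and pgWAT highest values of 3953, 2889 and 5264 CPM.

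Of 5 genes that brown fat and muscle share, 4 passed the filter in psWAT and in iBAT, and 3 of these, Cox8b, Cox7a1 and Fabp3, were lower in psWAT. Ckmt2 passed the filter too but was not called, with a log2FC of -1.57 (edgeR adjusted p 0.0904), and Cpt1b passed the filter in iBAT alone. All 7 brown adipocyte genes were lower in psWAT than in iBAT, and 5 to 7 of them over the alternatives. Among all genes that passed in each depot, 22.6% were lower. Cox8b was at 471 to 5239 CPM in iBAT and 6.19 to 346 CPM in psWAT. Of the adipocyte list, 6 of 9 were lower and 1 higher in psWAT than in iBAT, beside 22.6% lower and 20.1% higher of all genes that passed in each depot, with 3 of 9 lower without normalisation factors, and 9 of 9 were lower in psWAT than in pgWAT, beside 15.7%. The richest muscle library, psWAT 2 h replicate 2, had an adipocyte sum of 1405 CPM, in a depot range of 887 to 48430 CPM. Of the 5 lymphoid genes, the 3 that also passed the filter in pgWAT and the 1 that did so in iBAT were higher in psWAT, as were 19.1% and 20.1% of all genes in these comparisons. Keratinocyte genes, which would mark skin, did not pass between psWAT and pgWAT (0 of 4, against 34.8% of all genes). Their sum was highest in psWAT 8 h replicate 2 (87.7 CPM, depot median 4.95) and in pgWAT 22 h replicate 2 (42.7 CPM, depot median 5.19). The latter is the library with the highest epididymis and smooth muscle levels. Krt5, Krt14 and Krt15 passed the filter in psWAT but not in iBAT, where their highest values were 0.371, 0.124 and 0.248 CPM, against 22.1, 30.2 and 42.4 CPM in psWAT with medians of 0.170, 0.142 and 0 CPM. Krt10, the only gene of the list that passed in both, went the other way and was lower in psWAT (log2FC -1.06), as were 22.6% of all genes. That call was not kept in every alternative.

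Within iBAT and within psWAT the 10 genes went together from library to library. Spearman's rho of Ckm with each of the other 9, on log2(normalised CPM + 1), was 0.914 to 0.995 over the 17 iBAT libraries, and all 9 passed the permutation test (adjusted p 3.37e-05 or lower, 27 relations in all). For Tnnt3 in iBAT, Pearson's r was 0.995 (permutation p 1e-05, the smallest that 100000 permutations can give) and stayed at 0.993 without the 2 libraries farthest from the median of Ckm. In psWAT all 9 passed again. Acta1 had the highest rho, 0.998, and Myh2 the lowest, 0.556 (permutation p 0.022, adjusted 0.0297), with r of 0.687 (permutation p 0.00222) that became 0.814 without the 2 farthest libraries.

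In pgWAT 4 of 9 passed: Acta1 (rho 0.670, adjusted permutation p 0.00477), Tnnt3 (0.608, 0.0123), Mylpf (0.529, 0.0324) and Myh4 (0.528, 0.0324). Pearson's r was 0.852 for Acta1 (permutation p 6e-05) and fell to 0.600 without the 2 farthest libraries, whereas for Tnnt3, Mylpf and Myh4 it was 0.397, 0.380 and 0.269 with permutation p of 0.0934, 0.115 and 0.242, and rose to 0.743, 0.5455 and 0.766 without those libraries. By r, Mb passed too (0.525, adjusted permutation p 0.0356), with a rho of 0.203 and an r of 0.3003 without the 2 farthest libraries. Actn3 had a rho of -0.401 (permutation p 0.1), so that it did not follow Ckm in this depot. Lanes with at least 6 libraries gave rho of 0.929 to 1.00 in iBAT (lane 5, n = 7, permutations not repeated), of 0.438 to 1.00 and 0.829 to 1.00 in psWAT (lanes 5 and 7), and of -0.333 to 0.833 and -0.643 to 0.833 in pgWAT (lanes 5 and 6). All of these relations were positive in iBAT and psWAT, and in pgWAT some were negative.

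A high level in one depot of a mouse did not go with a high level in another beyond what the test allowed for. Over the mice with both libraries, rho of the same gene between iBAT and psWAT was -0.209 to 0.268 (16 mice), between iBAT and pgWAT -0.507 to 0.529 (17 mice) and between psWAT and pgWAT -0.387 to 0.618 (17 mice), and 0 of 30 relations passed after adjustment of the permutation p. The highest, Acta1 in psWAT and pgWAT, had rho of 0.618 (permutation p 0.00998, adjusted 0.299), and its r was 0.494 without the 2 farthest mice. With 16 or 17 mice, and with most of the genes near the floor in pgWAT, relations between depots could have been missed. The iBAT mouse with the highest level, 12 h replicate 3, had a summed level of 432 CPM in psWAT and 32.7 CPM in pgWAT. The psWAT mouse with the highest level, 2 h replicate 2, had 589 CPM in iBAT and 197 CPM in pgWAT.

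The genes most like the summed level of the 10 were named by Spearman's rho over the libraries of a depot, as a description. In iBAT (17 libraries, 14529 genes) they were Pgam2, Tpm2, Apobec2, Casq1, Ckmt2, Eef1a2, Mylk2, Art1, Hfe2 and Klhl41, with rho of 0.985 to 0.995. In psWAT (17 libraries, 16721 genes) they were Myom2, Atp2a1, Mylk2, Pgam2, Tnnc2, Casq1, Myot, Art1, Hrc and Myoz1, with rho of 0.978 to 0.993. In pgWAT (18 libraries, 16412 genes) the values were lower, from 0.738 to 0.808, and the genes were others: Kif5c, Fabp3-ps1, Lonrf2, Optc, Tpbg, Acsl6, Srcin1, Cntn1, Cdk10 and Srprb. Kif5c, a kinesin of neurons, reached 403 CPM there, against a median of 3.18 CPM. These rank orders share the depth and composition of the same libraries.

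Outside fat, the stomach (STM) had a summed level of 68.8 to 5649 CPM (median 1923) and the liver (LIV) of 0.818 to 999 CPM (median 34.3), with 16 of 17 and 6 of 18 libraries above 100 CPM. In STM 8 h replicate 1 and 12 h replicate 1, Acta1 was at 3.83 and 2.03 CPM while Tnni2 was at 27.8 and 99.8 CPM. Tnni2 was thus 7.25 and 49.2 times Acta1 there, and 0.119 to 0.477 of it in the other 15 kept stomachs. In the 6 liver libraries with enough myosin counts, Myh1 made up 35.4 to 95.7% and Myh4 0 to 49.1%. In brain (BRN), olfactory bulb (OB), cerebellum (CBL) and brainstem (BST) the highest sums were 24.1, 38.7, 27.9 and 8.15 CPM. The pgWAT median of 28.8 CPM lay within the range of these nervous tissues' highest libraries, while the medians of iBAT and psWAT were above every one of them.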

How the data were processed

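Poly(A) RNA of 9 organs from 18 mice was sequenced, giving 162 libraries. The authors aligned reads with TopHat2 2.1.1 to GRCm38.p5, counted unique reads per gene with HTSeq 0.9.1 and deposited raw counts without normalisation. The strand setting of the counting is not given in the sources used here, so that reads of a gene and of an antisense gene over it cannot be told apart. The 5 libraries that the study had removed were left out, which kept 157.

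CPM are counts divided by a library's total, on the usual scale on which 1% of a library is 10000 CPM. edgeR 4.0.16 (TMM factors, robust quasi-likelihood) was fitted to all genes with a CPM equal to 10 counts in a median-sized library in at least 3 libraries, per depot with time point as a factor, and over the 3 depots with time point as a covariate. Genes were called at a Benjamini-Hochberg adjusted p under 0.05, and between pairs of groups only where log2FC also passed 1 in size. The SE given with edgeR log2FC is the absolute log2FC divided by the square root of the F statistic, not a fitted standard error. The fits were repeated with DESeq2 1.42.0. Lists were compared between depots over genes that passed the filter within each depot compared. Correlations used log2(normalised CPM + 1) and 100000 permutations, with Benjamini-Hochberg adjustment over 27 relations within depots and 30 across depots. Exon lengths came from Gencode M21 (49704 of 53686 rows).

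The members and lists were chosen with earlier results of these data known, so that none of them is an independent test of a pattern. All 10 genes are named, and from each other list the 3 with the highest mean CPM in the organ described, plus Myh7 and genes named where a count needed them. The 10 most similar genes per depot were taken by rho. The animal label ties depots to a mouse, but libraries of the same mouse deviated together little, with a mean correlation of deviations of 0.008 (iBAT and psWAT), 0.052 (iBAT and pgWAT) and 0.087 (psWAT and pgWAT), and a fit with the mouse as a block was an alternative. Tables and plots were made with R 4.3.3, Python 3.11.15 and pandas 2.3.3.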

Additional observations from a re-analysis of the deposited data

Results flagged for a closer look

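Muscle transcripts also appeared in libraries outside the comparisons. In STM 22 h replicate 3 the 10 genes summed to 5649 CPM, the highest of the kept stomach libraries, and in LIV 12 h replicate 1 to 999 CPM, the highest of the liver libraries, above the largest sum of any nervous tissue library (38.7 CPM). The 2 fat libraries that the quality filter removed carried them as well, with 357.7 CPM in iBAT 22 h replicate 1 and 112.8 CPM in psWAT 22 h replicate 2, inside the range of the kept libraries of their depots. No test of single outlying libraries was run.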

How the results depend on the processing

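The comparisons of psWAT and of iBAT with pgWAT kept all 10 genes, at log2FC of 3.43 (Mb) to 11.61 (Myh4) and of 3.69 (Actn3) to 11.19 (Myh4), in every alternative run (DESeq2, RLE or no normalisation factors, no filter, all 18 libraries per depot, psWAT 12 h replicate 3, the 22 h libraries or 2 pgWAT libraries left out, the mouse as a block, and each mouse left out in turn). Of these genes, Myh2 and Tnni2 did not pass the filter on low counts within pgWAT and so had to differ, which leaves 8. In the alternatives with the filter, 7535 (of 18793) to 8207 (of 18818) of all genes were called between psWAT and pgWAT. Between iBAT and pgWAT 6999 to 8802 of 18864 were called. With no filter the counts were 11017 and 9866 of 33339. The alternatives without the 22 h libraries or the 2 pgWAT libraries were added after seeing the data. In the time tests edgeR called 0 of the genes with RLE or no normalisation factors, no filter, each library left out, all 18 libraries (iBAT and psWAT), the 22 h libraries left out, and in pgWAT the 2 libraries left out. DESeq2 called 2 in the joint test of pgWAT (Acta1 and Tnnt3, adjusted p 0.000419 and 0.0436) and 2 against 0 h in pgWAT, and without the 2 libraries 1 in each (Acta1, joint adjusted p 0.000298). The replicate number as a block left 0 of the 10 called in each depot and 4222, 0 and 0 of all genes in iBAT, psWAT and pgWAT. Same-numbered samples of different time points had mean correlations of 0.159, -0.078 and 0.013, against -0.080, 0.039 and -0.006 for other numbers, and the labels give the number no shared animal or batch. A lane covariate could not be fitted in iBAT and gave 0 in psWAT and pgWAT. Of all genes, DESeq2 called 2053 in the joint test of psWAT and 556 in that of pgWAT where edgeR called 0, and edgeR called 373 in psWAT with all 18 libraries and 876 in iBAT without 22 h replicate 2.

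Between psWAT and iBAT the count fell from 2 to 1 with no filter, without psWAT 12 h replicate 3 and with the mouse as a replicate block, and ranged from 1 to 2 with each mouse left out. Without normalisation factors it stayed at 2 with Actn3 (log2FC 1.94, edgeR adjusted p 0.0357) in place of Myh2 (-1.44, 0.143), and Actn3 also passed without animal 12 (1.70, 0.0491). Genes not called there changed sign. Without normalisation factors Acta1, Myh1 and Mylpf came to 0.466, 0.168 and 0.440, and without the 22 h libraries Myh4 came to -0.024. With each mouse left out in turn, log2FC ran from -1.23 to 0.663 for Acta1, from -1.42 to 0.134 for Myh1 and from -1.27 to 0.486 for Mylpf, lowest without animal 5 and highest without animal 12. It ran from -0.680 to 1.45 for Ckm, from -0.973 to 1.35 for Myh4, from -0.281 to 1.47 for Tnnt3 and from -0.386 to 1.25 for Tnni2, with the same animals at the ends. The cause was not tested. Of the 27 relations of Ckm, 22 passed, 20 by Pearson's r and 23 without the 2 pgWAT libraries, and 0 of 30 across depots passed under any alternative.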

Other observations

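Some ratios between muscle transcripts in iBAT lay apart at 22 h and others did not, which was picked out after the values were seen and not tested. Myh4 was 0.278 and 0.330 of Ckm in the 2 kept libraries of 22 h, and 0.583 to 2.19 of it in the 15 libraries of 0 to 18 h. Actn3 was 0.126 and 0.143 of Ckm at 22 h, and 0.179 to 0.559 before. Ckm was 0.911 and 1.14 of Acta1 at 22 h, and 0.464 to 0.824 before, whereas Tnnt3 was 0.755 to 0.812 of Ckm at 22 h, inside its range of 0.723 to 1.36 before. Mb was 0.274 and 0.334 of Ckm, inside 0.205 to 0.865 before, and the ratios of Tnni2 to Acta1 (0.561 and 0.897, against 0.116 to 0.608) and of Mylpf to Acta1 (0.413 and 0.865, against 0.194 to 0.804) overlapped the earlier ones. In 22 h replicate 1, which the quality filter removed, Myh4 was 0.615 and Actn3 0.404 of Ckm, inside the ranges of 0 to 18 h, and Ckm was 1.04 of Acta1. The 2 kept libraries were on lanes 1 and 3, which held no iBAT library of 0 to 18 h, and the removed one was on lane 1, and 29.7% of all genes were called between 22 h and 0 h in this depot.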
